A study of Homo sapiens with 15 samples.

Results

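RNA polymerase II and the factors that carry it through elongation are described here by 36 genes, chosen by symbol from the 57500 genes of the count tables, across 15 RNA sequencing libraries of K562 cells. They are the 12 listed Pol II subunits, DSIF with SPT6 (3 genes), FACT (2), NELF (4), the super elongation complex without its kinase (6), the PAF1 complex with RTF1 (5), CDK12, CDK13 and cyclin K (3), and TFIIS (1). BET genes and P-TEFb genes are not among them. K562 is an established human erythroleukaemia line that carries BCR-ABL1, although its cell type is labelled as lymphoblast. The 5 groups of 3 libraries were JQ1-FCPF with sgRNA, JQ1-FCPF without sgRNA, JQ1 with sgRNA, JQ1 without sgRNA, and a control, all after 1 h. Cells of the first 4 groups carried Cas9FCPF by transfection, with sgRNA (genotype Cas9FCPF+sgRNA) or without it (Cas9FCPF-sgRNA), and received either compound at 1 µM. The control is labelled wild type and NT, whereas the series text names DMSO, and nothing states that control cells were transfected. A comparison with the control therefore holds transfection, Cas9FCPF and compound together, and these cannot be told apart. The sgRNA target is not named in the labels, and no structure is given there for the compound JQ1-FCPF.

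Pol II synthesises messenger RNA and usually pauses shortly after it starts, held by DSIF and NELF. Release into productive elongation follows phosphorylation of NELF, DSIF and the C-terminal domain (CTD) of the largest subunit by P-TEFb, which the super elongation complex can bring to genes. The PAF1 complex, SPT6 and FACT then travel with the polymerase through nucleosomes, CDK12 and CDK13 with cyclin K phosphorylate the CTD along the gene, and TFIIS restarts stalled enzymes. JQ1 displaces BET proteins from acetylated chromatin.

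Library totals were 12625669 to 17544518 counts, and the 36 genes took 0.377% to 0.438% of them. An erythroid and K562 marker list of 12 genes had all 12 at or above 1 CPM (counts scaled by library size) in every library, with a summed level of 1670 to 2430 CPM. The summed level of 5 B cell markers was 3.24 to 6.19 CPM, that of 5 T and NK cell markers 19.9 to 35.6 CPM, that of 5 fibroblast markers 2.04 to 6.51 CPM, and that of 5 epithelial markers, a list that includes keratins, 832 to 1450 CPM. On the first principal component of log2 CPM over all genes tested, the axis of largest variance, JQ1-FCPF with sgRNA replicate 2 scored 32.2, while replicates 1 and 3 of that group scored -16.7 and -14.8. The 6 JQ1 libraries scored 16.8 to 24.6 on it, so replicate 2 lay on their side, away from its own group. JQ1 with sgRNA replicate 1 had the highest share of mitochondrial counts, 7.46%, and the lowest level of POLR2L, 90.3 CPM. Counts of called genes are given with and without these libraries where they change. No label says that replicates were separate cultures, so p-values measure the spread between these libraries, which may be technical.

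The genes were first ordered by their level per kilobase of exon in control cells (mean ± SD, n = 3). The small subunit POLR2L, shared by all 3 nuclear polymerases, was highest at 155 ± 14.6 CPM per kb, above POLR2E, another shared subunit, at 79.2 ± 7.72 CPM per kb. SSRP1, the HMG-box subunit of FACT, followed at 76.8 ± 4.94 CPM per kb, within the spread of POLR2E. POLR2A, the largest subunit and the bearer of the CTD, stood at 25.2 ± 2.42 CPM per kb beside POLR2B, the second largest, at 25.6 ± 0.526 CPM per kb. The spreads of these last values overlap, as do those of neighbours through much of the middle of the order. CDK12 at 6.37 ± 0.876 CPM per kb and CDK13 at 5.59 ± 0.211 CPM per kb were lower, and their partner cyclin K (CCNK) was at 4.04 ± 0.224 CPM per kb. Lowest of the tested genes were the scaffold proteins AFF1 (3.37 ± 0.287 CPM per kb) and AFF4 (2.86 ± 0.113 CPM per kb) with the elongation factor ELL2 (3.11 ± 0.281 CPM per kb). ELL, the paralog of ELL2, was at 7.91 ± 0.514 CPM per kb. Exons of some genes, among them POLR2L and CCNK, overlap those of other genes, so their places in this order are uncertain.

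**Figure D1:**
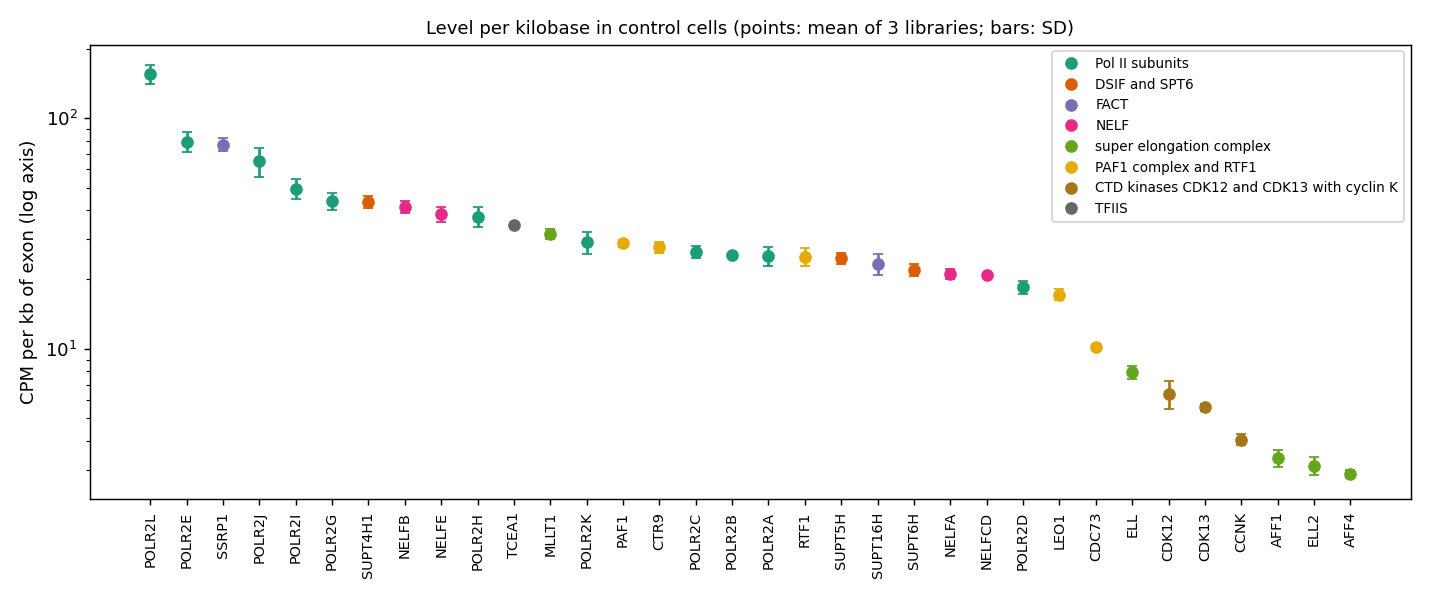
Level of the 34 tested genes in control cells, in CPM per kilobase of exon on a log axis, ordered from high to low; points are means of 3 libraries, bars are SD, and colours mark the complex. Subunits of Pol II spread from 155 (POLR2L) to 18.5 (POLR2D) CPM per kb, and CDK12, CDK13, CCNK, AFF1, ELL2 and AFF4 lie at the low end. The levels of POLR2L and CCNK are uncertain because their exons overlap other genes.

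Of the 36 genes, 34 passed the filter on low counts. MLLT3 (AF9), a YEATS-domain reader of acylated histones, was all but silent at 0.0157 ± 0.00168 CPM per kb in control cells, where its paralog MLLT1 (ENL) was at 31.6 ± 1.56 CPM per kb. POLR2F had 29 counts in all 15 libraries together. It shares 4423 exon bases, 62.8% of its exon length, with ENSG00000279010 on the same strand, which had 1699 counts. Whether this overlap accounts for the few counts of POLR2F was not tested, and its level is not taken as measured here. Overlaps on the opposite strand also bear on some genes, since the use of strand in counting is not given in the sources used here. CCNK shares 59.5% of its exon bases with CCDC85C, POLR2I 32.9% with TBCB, SUPT4H1 27.8% with TSPOAP1-AS1 and POLR2L 22.5% with CD151. POLR2J has near-identical copies (POLR2J2 had 245 counts and POLR2J3 2622, against 20364 for POLR2J), so its counts are uncertain.

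After 1 h, JQ1 libraries held less RNA of the largest Pol II subunit, of the elongation factors SUPT5H and SUPT6H, of the kinases CDK12 and CDK13 and of MLLT1 than control libraries, with or without sgRNA. Without sgRNA, 6 of the 34 genes were lower and 0 higher (edgeR's quasi-likelihood test at an adjusted p under 0.05, corrected over 15517 genes). With sgRNA, 8 were lower and 0 higher. Over all genes tested, 12.3% were called in JQ1 without sgRNA against the control (6.23% lower) and 14.2% in JQ1 with sgRNA against the control (7.04% lower). The median log2 fold change of the 34 genes was -0.17 in both comparisons, beside -0.00 without sgRNA and 0.01 with sgRNA over all genes. Of the 34, 27 were below 0 with sgRNA and 23 without. At an unadjusted p under 0.05 in the same edgeR model the genes and the background were closer, with 32.4% of the members against 30.1% of all genes with sgRNA and 35.3% against 28.2% without. The 2 comparisons share the control libraries. The shares over all genes, here and below, were not matched for level. All genes tested had a median of 16.8 CPM in control cells, well below the members, and low counts are harder to call. In bulk RNA, fewer cells that express a gene and less of its RNA per cell cannot be told apart.

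**Figure D2:**
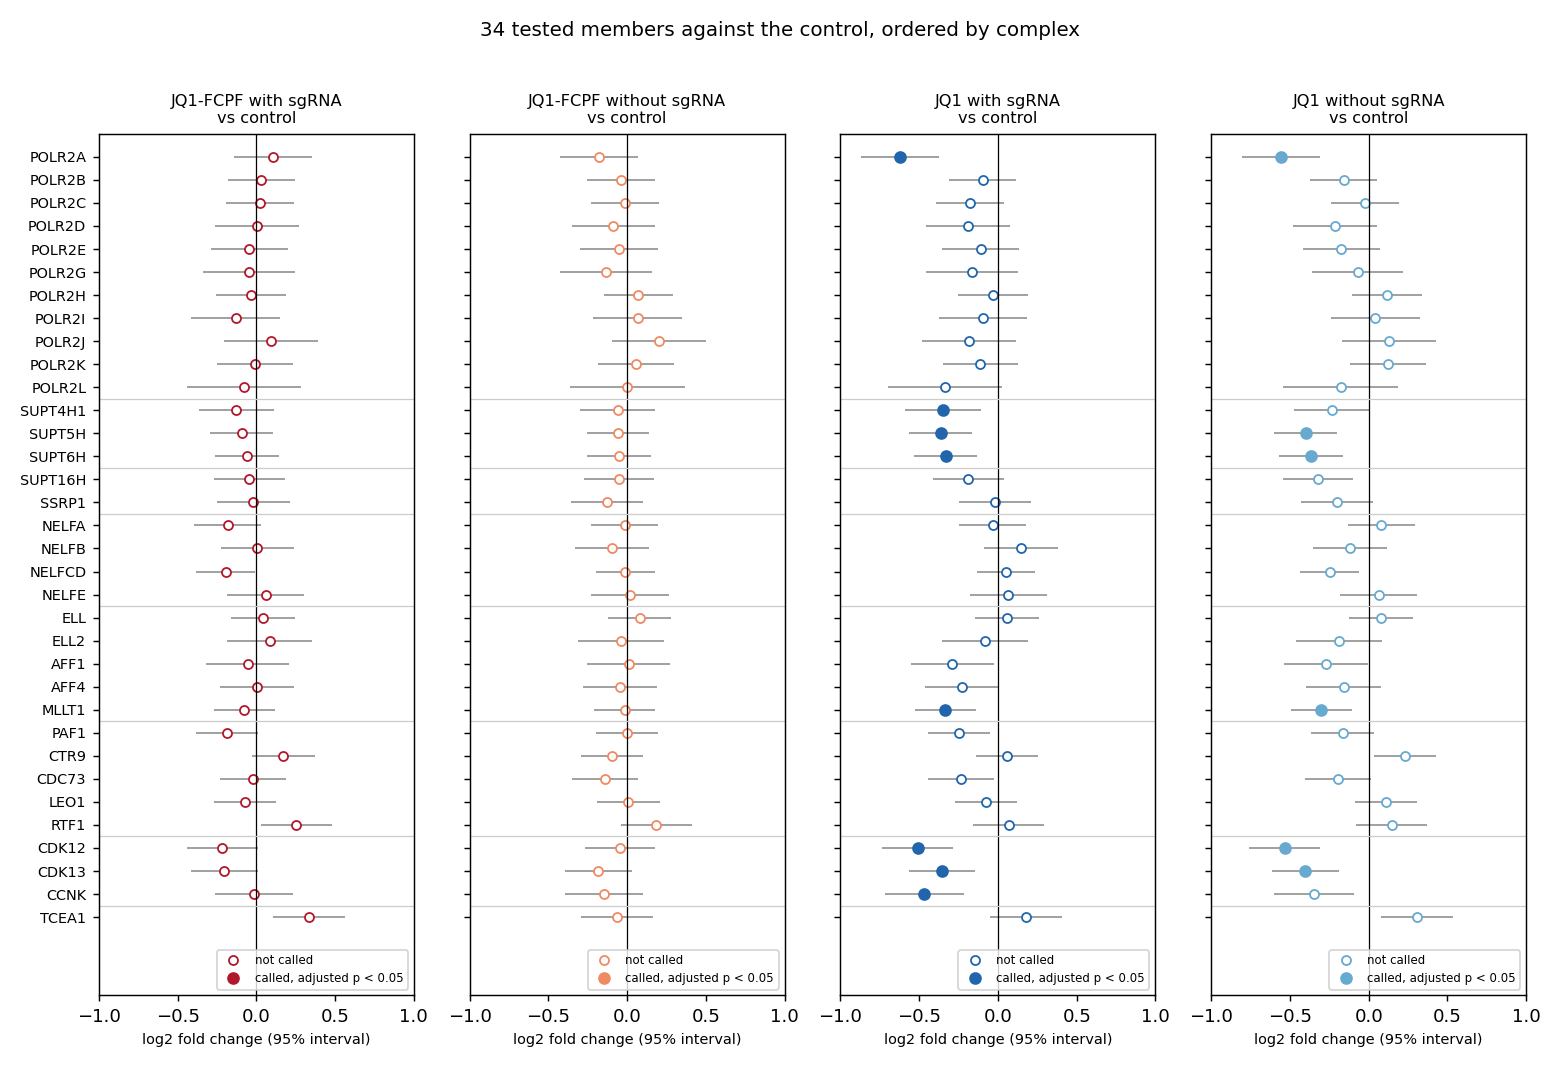
Log2 fold change of the 34 tested genes in each treated group over the control, ordered by complex; bars are 95% intervals and filled points passed edgeR's adjusted p of 0.05. Filled points are found in the JQ1 panels, 8 with sgRNA and 6 without, all left of 0, and in neither JQ1-FCPF panel.

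Among the subunits of Pol II, POLR2A (chr17:7484366-7514616, plus strand, GRCh38) was the 1 called of 11 tested. Its levels were 133.0, 133.0 and 144.6 CPM in JQ1 with sgRNA and 128.3, 148.6 and 152.0 CPM in JQ1 without sgRNA, against 199.9, 197.6 and 233.7 CPM in the control. All 6 JQ1 libraries lay below all 3 control libraries, with a clear gap. The share of all genes with such a separation was not counted, here or for the pairs of groups below. POLR2A was 1.54-fold lower in JQ1 with sgRNA (log2 -0.62 ± 0.12 SE, edgeR adjusted p = 0.00293). In JQ1 without sgRNA it was 1.47-fold lower (log2 -0.56 ± 0.12 SE, edgeR adjusted p = 0.00619). The other 10 subunits ran between -0.34 (POLR2L) and -0.03 (POLR2H) on the log2 scale with sgRNA and between -0.21 (POLR2D) and 0.13 (POLR2J) without. POLR2B, which forms the catalytic centre together with POLR2A, was at -0.10 with sgRNA and -0.16 without on that scale, neither called. Whether POLR2A differed from the other subunits was not tested. POLR2L had 90.3, 168.0 and 162.2 CPM in JQ1 with sgRNA, against 163.7, 195.6 and 171.6 CPM in the control. Its log2 fold change there was -0.34, and -0.10 without replicate 1 of JQ1 with sgRNA; of 22 alternatives, 1, with no filter on low counts, called it.

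**Figure D3:**
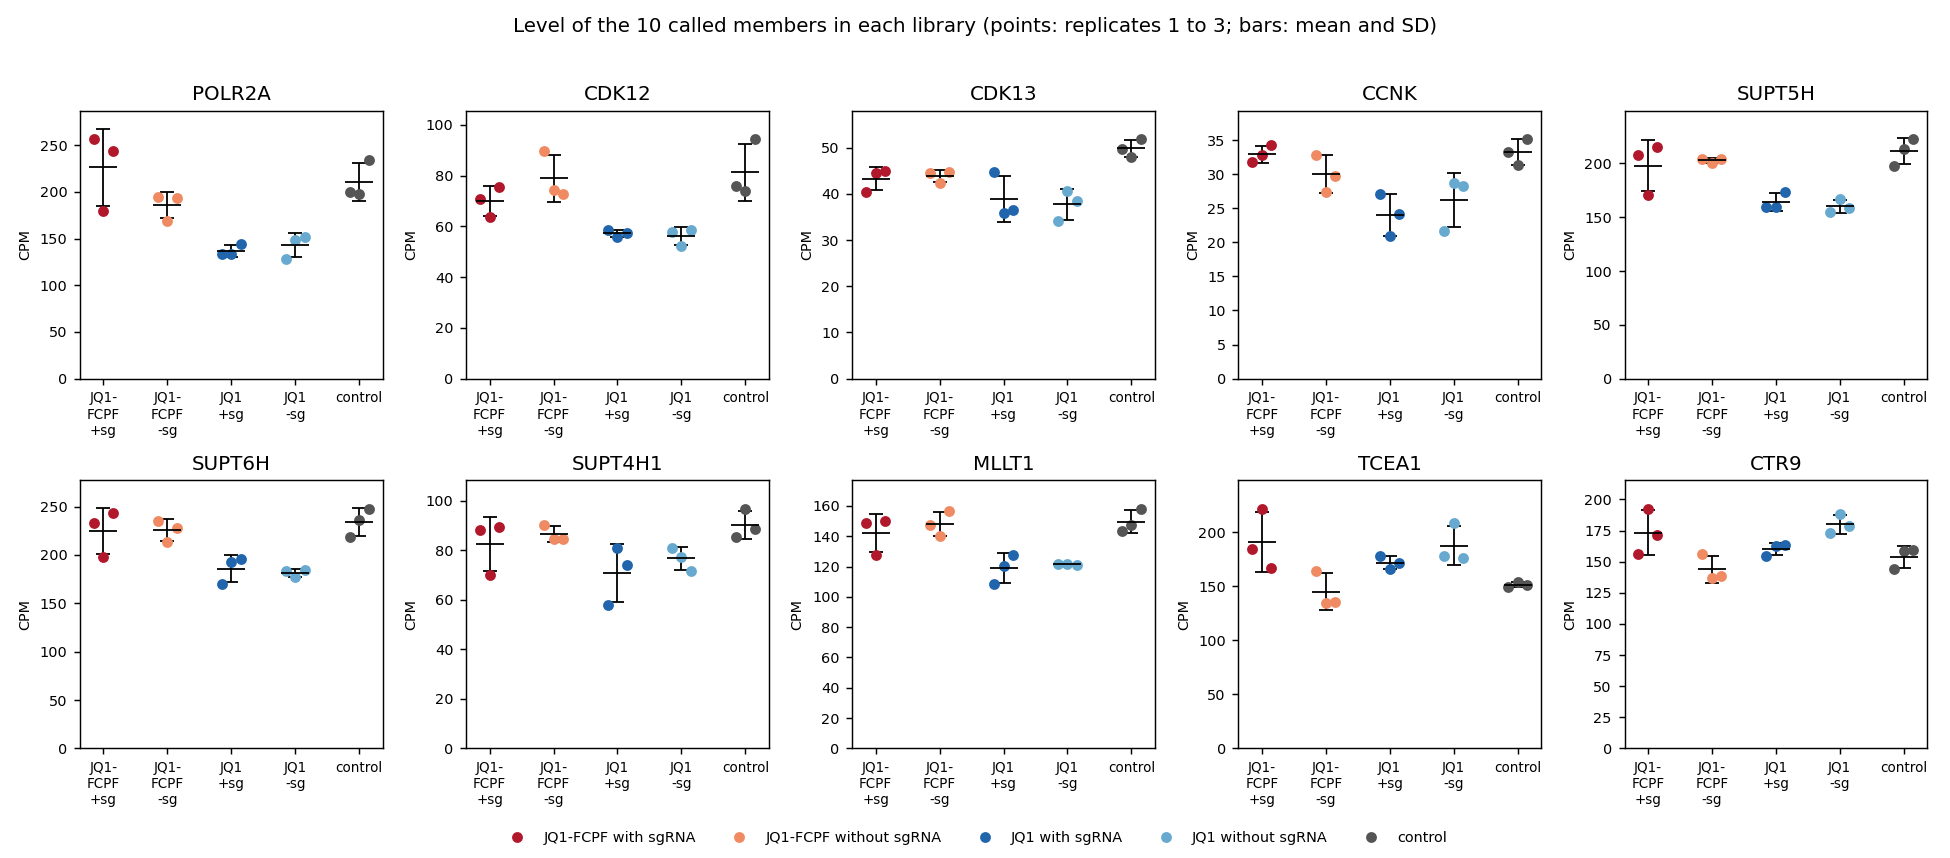
CPM in each of the 15 libraries for the 10 genes called in at least 1 pairwise comparison; points are replicates 1 to 3, lines and bars are the mean and SD, and groups run from JQ1-FCPF with sgRNA (+sg) at the left to the control at the right. For POLR2A, SUPT6H and CDK12 the 6 JQ1 points lie below the other 9; replicate 2 of JQ1-FCPF with sgRNA is the lowest of its group for POLR2A, SUPT5H and SUPT6H.

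DSIF is the dimer of SUPT5H (SPT5) and SUPT4H1 (SPT4), and SUPT6H (SPT6) is a histone chaperone that binds the elongating enzyme. SUPT5H had 159.3, 159.7 and 173.7 CPM in JQ1 with sgRNA and 155.1, 166.8 and 158.3 CPM in JQ1 without sgRNA, against 198.1, 213.7 and 222.4 CPM in the control. It was 1.29-fold lower with sgRNA (edgeR adjusted p = 0.0163) and 1.32-fold lower without (edgeR adjusted p = 0.0113), with no overlap of JQ1 and control libraries. SUPT6H had 169.5, 192.6 and 195.5 CPM in JQ1 with sgRNA and 183.2, 177.1 and 184.5 CPM in JQ1 without sgRNA, against 218.7, 235.8 and 247.4 CPM in the control. Here too the JQ1 libraries were all below the control libraries. The difference was 1.26-fold with sgRNA (edgeR adjusted p = 0.0278) and 1.29-fold without (edgeR adjusted p = 0.0203). SUPT4H1 was 1.27-fold lower with sgRNA (edgeR adjusted p = 0.0477), with 57.9, 81.0 and 74.0 CPM in JQ1 with sgRNA against 85.5, 96.7 and 88.6 CPM in the control. The lowest value is that of JQ1 with sgRNA replicate 1, without which the log2 fold change was -0.22 (edgeR adjusted p = 0.177). The call held under 8 of 22 alternative analyses. Without sgRNA the log2 fold change of SUPT4H1 was -0.23 (95% interval -0.47 to 0.01) and was not called.

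The kinases CDK12 and CDK13 and their cyclin had the lowest median of the complexes, at -0.47 with sgRNA and -0.40 without on the log2 scale. CDK12 (chr17:39461511-39564907, plus strand, GRCh38) had 58.5, 55.8 and 57.4 CPM in JQ1 with sgRNA and 57.9, 52.3 and 58.6 CPM in JQ1 without sgRNA, against 75.8, 74.0 and 94.2 CPM in the control. The JQ1 values were close together and all below the control, whose replicate 3 was the highest. CDK12 was 1.42-fold lower with sgRNA (edgeR adjusted p = 0.00545) and 1.45-fold lower without (edgeR adjusted p = 0.00487). CDK13, whose product pairs with the same cyclin, had 44.7, 35.8 and 36.4 CPM in JQ1 with sgRNA and 34.1, 40.7 and 38.4 CPM in JQ1 without sgRNA, against 49.8, 48.0 and 51.8 CPM in the control. It was 1.28-fold lower with sgRNA (edgeR adjusted p = 0.0254) and 1.32-fold lower without (edgeR adjusted p = 0.0165), again without overlap. CCNK had 27.0, 20.9 and 24.1 CPM in JQ1 with sgRNA, against 33.2, 31.4 and 35.1 CPM in the control, and was 1.38-fold lower (edgeR adjusted p = 0.0147). In JQ1 without sgRNA its log2 fold change was -0.35 (95% interval -0.60 to -0.09), not called. CCDC85C, the opposite-strand gene that overlaps CCNK, had log2 fold changes of -0.05 with sgRNA and -0.21 without, neither called. Its part in the CCNK counts was not tested.

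In the super elongation complex, MLLT1, a reader of acetylated histones, was the 1 called of 5 tested. It had 108.4, 120.1 and 127.9 CPM in JQ1 with sgRNA and 121.4, 121.8 and 121.2 CPM in JQ1 without sgRNA, against 143.5, 147.7 and 157.9 CPM in the control. It was 1.26-fold lower with sgRNA (edgeR adjusted p = 0.0222) and 1.23-fold lower without (edgeR adjusted p = 0.0391). The other 4 were ELL, ELL2, AFF1 and AFF4, and ELL had the only log2 fold changes above 0, at 0.06 with sgRNA and 0.08 without. None of the 4 NELF genes, the 5 genes of the PAF1 complex with RTF1, or the 2 FACT genes was called against the control in either JQ1 group by edgeR in the main fit, although 5 of these 11 had an unadjusted p under 0.05 in at least 1 of them (PAF1, CDC73, CTR9, NELFCD and SUPT16H). Over all genes, 30.1% had an unadjusted p under 0.05 in edgeR with sgRNA and 28.2% without. The share in at least 1 of the 2 comparisons was not counted. Some of these 11 genes were called under other settings. In JQ1 without sgRNA, DESeq2 called NELFCD and SUPT16H lower. Without JQ1-FCPF with sgRNA replicate 2, or with only the groups compared, edgeR called these and CTR9, which was higher. Calls over all genes in these settings, in that order, were 2120, 2943 and 4521, beside 1908 in the main fit. In JQ1 with sgRNA, PAF1 was called lower without JQ1-FCPF with sgRNA replicate 2. NELF ran from -0.03 (NELFA) to 0.15 (NELFB) on the log2 scale with sgRNA, and from -0.25 (NELFCD) to 0.08 (NELFA) without. SUPT16H, the larger FACT subunit, had a log2 fold change of -0.32 without sgRNA (edgeR adjusted p = 0.0544) and of -0.19 with sgRNA. CTR9, the scaffold of the PAF1 complex, was at 0.23 without sgRNA (edgeR adjusted p = 0.118), and TCEA1, which encodes TFIIS, at 0.31 (edgeR adjusted p = 0.0694).

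These calls, like those over all genes, depended on single libraries. In JQ1 with sgRNA against the control, 1 gene (POLR2A) remained without control replicate 3, 3 without control replicate 2 (CCNK, CDK12 and POLR2A) and 5 without JQ1 with sgRNA replicate 2. Without JQ1 with sgRNA replicate 1 the count was 7, with AFF1 and AFF4 called and MLLT1, SUPT4H1 and SUPT6H not. It was 9 without JQ1-FCPF with sgRNA replicate 2, with PAF1 gained. In JQ1 without sgRNA against the control, 0 remained without control replicate 3 (log2 fold change of POLR2A -0.47, edgeR adjusted p = 0.0567), 2 without replicate 1 or replicate 3 of JQ1 without sgRNA (CDK12 and POLR2A each time), and 11 were called without JQ1-FCPF with sgRNA replicate 2, of which 2 were higher. The count there was 9 without JQ1 with sgRNA replicate 1, with CCNK and SUPT16H gained as lower and TCEA1 as higher. The number of all genes called moved with the same omissions. In JQ1 with sgRNA against the control it was 2211 in the main fit and 726 without control replicate 3. Without JQ1-FCPF with sgRNA replicate 2 it was 3359. In JQ1 without sgRNA against the control the same numbers were 1908, 430 and 2943.

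Neither JQ1-FCPF group differed from the control in a called member. Without sgRNA, 0 of 34 were called against the control, as were 0.00644% of all genes, and 0 members had an unadjusted p under 0.05 in edgeR (1.84% of all genes). POLR2A had 194.3, 169.2 and 193.7 CPM in JQ1-FCPF without sgRNA, against 199.9, 197.6 and 233.7 CPM in the control, and its log2 fold change of -0.18 had a 95% interval of -0.43 to 0.07. With sgRNA, 0 of 34 were called, while 7.21% of all genes were. There POLR2A had 256.1, 179.3 and 243.3 CPM, and its log2 fold change over the control was 0.10 (95% interval -0.14 to 0.35). That value was 0.26 without replicate 2 of JQ1-FCPF with sgRNA, 0.01 without its replicate 1, 0.05 without its replicate 3, 0.19 without control replicate 3, 0.07 without control replicate 1 and 0.06 without control replicate 2, never called. The estimates under JQ1 were -0.62 with sgRNA and -0.56 without, over the same control libraries, and have spreads of their own. The compounds are compared directly below, where POLR2A was called with sgRNA and not called without it (edgeR adjusted p = 0.055). CDK12 was at -0.22 with sgRNA (95% interval -0.44 to 0.01) and -0.05 without (-0.27 to 0.18). For JQ1-FCPF with sgRNA, 1 gene was called without its replicate 2 (NELFA), and TCEA1 alone was called without its replicate 3, without JQ1-FCPF without sgRNA replicate 1 or without JQ1 with sgRNA replicate 1. By DESeq2, TCEA1 was called in JQ1-FCPF with sgRNA, and 0 members in JQ1-FCPF without sgRNA.

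The 2 compounds were next compared directly at the same dose and time, in 2 pairs of groups. With sgRNA in both, POLR2A was 1.65-fold higher in JQ1-FCPF than in JQ1, at 256.1, 179.3 and 243.3 CPM in JQ1-FCPF against 133.0, 133.0 and 144.6 CPM in JQ1 (log2 0.73 ± 0.12 SE, edgeR adjusted p = 0.00176). All JQ1-FCPF libraries were above all JQ1 libraries. CCNK was 1.37-fold higher, at 31.8, 32.7 and 34.2 CPM in JQ1-FCPF against 27.0, 20.9 and 24.1 CPM in JQ1 (edgeR adjusted p = 0.0438). These were 2 of 34, both higher, beside 2.95% of all genes called and 1.18% higher. The remaining differences include SUPT5H at 0.27 (95% interval 0.07 to 0.47) and CDK12 at 0.29 (0.07 to 0.52) on the log2 scale, neither called. Without JQ1-FCPF with sgRNA replicate 2 the count became 10, of which 8 were higher, among them POLR2A at 0.88 on the log2 scale (edgeR adjusted p = 5.32e-06), CDK12, SUPT4H1, SUPT5H, SUPT6H and MLLT1. Calls over all genes rose from 458 to 2757 with that library left out, so the rise was not particular to the members. A fit of only these 2 groups called 0 members, with POLR2A at 0.73 on the log2 scale and an edgeR adjusted p of 0.125. The count was 4 without JQ1 with sgRNA replicate 1, and 1 (POLR2A) without any single one of the control libraries, of replicates 2 and 3 of JQ1 with sgRNA, JQ1 without sgRNA or JQ1-FCPF without sgRNA, or of replicates 1 and 3 of JQ1-FCPF with sgRNA.

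Without sgRNA in either group, 4 of 34 genes were called in JQ1-FCPF against JQ1, beside 7.80% of all genes. So small a count is near that share and says nothing particular about the members as a set. CDK12 was 1.40-fold higher, with 89.6, 74.2 and 72.8 CPM in JQ1-FCPF against 57.9, 52.3 and 58.6 CPM in JQ1 (edgeR adjusted p = 0.0138). SUPT5H was 1.27-fold higher, with 204.5, 200.1 and 204.1 CPM in JQ1-FCPF against 155.1, 166.8 and 158.3 CPM in JQ1 (edgeR adjusted p = 0.0349). Neither gene's groups overlapped, and how many of all genes had no overlap was not counted. Called higher were 4.11% of all genes, and called lower 3.69%. In the other direction, CTR9 was 1.25-fold lower, with 156.5, 136.6 and 138.8 CPM in JQ1-FCPF against 173.2, 188.1 and 179.0 CPM in JQ1 (edgeR adjusted p = 0.0410). TCEA1 was 1.30-fold lower, with 164.5, 134.2 and 135.4 CPM in JQ1-FCPF against 177.5, 208.6 and 176.2 CPM in JQ1 (edgeR adjusted p = 0.0405). For both, every JQ1-FCPF library was below every JQ1 library. POLR2A was at 0.38 on the log2 scale (95% interval 0.13 to 0.63, edgeR adjusted p = 0.0550) and SUPT6H at 0.31 (0.11 to 0.52, edgeR adjusted p = 0.0511), neither called. The count of 4 was 0 without JQ1 without sgRNA replicate 2 and 7 without JQ1-FCPF with sgRNA replicate 2 or JQ1 with sgRNA replicate 1. It was 2 (CDK12 and SUPT5H) without any 1 of the control libraries, and 1 (CDK12) without replicate 1 or 3 of JQ1 without sgRNA or replicate 2 or 3 of JQ1-FCPF without sgRNA. Calls over all genes moved too, from 1210 to 76 without JQ1 without sgRNA replicate 2. They rose to 2311 without JQ1-FCPF with sgRNA replicate 2.

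**Figure D4:**
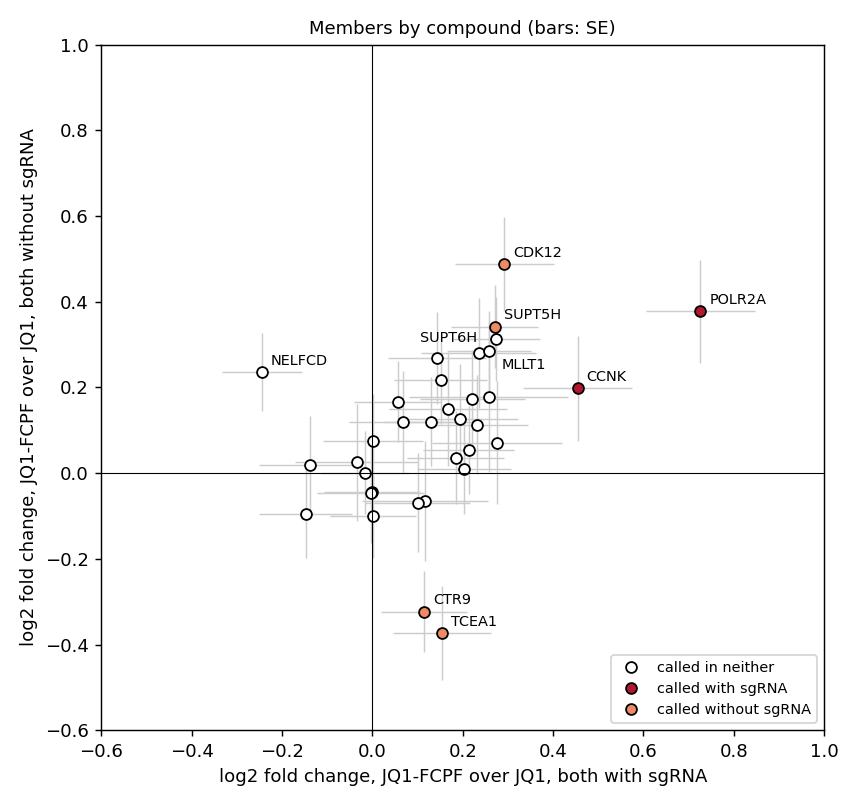
Log2 fold change of JQ1-FCPF over JQ1 for the 34 tested genes, with sgRNA in both groups (x axis) and without sgRNA in both (y axis); bars are SE and filled points passed edgeR's adjusted p of 0.05 in 1 of the comparisons. POLR2A lies farthest right at 0.73, CDK12 highest at 0.49, and CTR9 and TCEA1 lie below 0 on the y axis.

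Adding sgRNA was compared within each compound. In JQ1-FCPF with against without sgRNA, TCEA1 was the 1 gene called of 34, beside 6.25% of all genes (2.06% higher). A single call says nothing particular about the members as a set. TCEA1 had 184.2, 221.3 and 167.2 CPM with sgRNA against 164.5, 134.2 and 135.4 CPM without, a 1.32-fold higher level (edgeR adjusted p = 0.0326). The 3 values with sgRNA were above the 3 without, narrowly so at the edge. Without JQ1-FCPF with sgRNA replicate 2, the library with the highest value, its edgeR adjusted p was 0.115, and POLR2A was called in its place at 0.43 on the log2 scale (edgeR adjusted p = 0.0113). No member was called without replicate 1 of JQ1-FCPF with sgRNA or without replicate 2 or 3 of JQ1-FCPF without sgRNA. With all libraries POLR2A was at 0.29 on the log2 scale (95% interval 0.04 to 0.53, edgeR adjusted p = 0.164), at 256.1, 179.3 and 243.3 CPM with sgRNA against 194.3, 169.2 and 193.7 CPM without. In JQ1 with against without sgRNA, 0 of 34 were called, as were 0.0129% of all genes, and the log2 fold change of POLR2A was -0.06. The interaction, which tests whether the sgRNA effect differed between the compounds, called 0 of 34 beside 0.786% of all genes by edgeR. It had 3 members at an unadjusted p under 0.05 in edgeR (8.82%), beside 13.9% of all genes. DESeq2 called 3 there (CTR9, NELFCD and TCEA1), and edgeR called 1 (NELFCD) without JQ1-FCPF with sgRNA replicate 2. Calls over all genes were then 267 and 346, beside 122 in the main fit.

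NELFCD, a NELF subunit, was the next gene after the called ones in the test for any difference among the 5 groups (edgeR adjusted p = 0.0533). It had 101.3, 120.4 and 124.2 CPM in JQ1-FCPF with sgRNA, 137.2, 131.7 and 124.1 CPM in JQ1-FCPF without sgRNA, 135.6, 137.0 and 137.4 CPM in JQ1 with sgRNA, 108.9, 113.9 and 111.0 CPM in JQ1 without sgRNA, and 129.4, 134.4 and 132.3 CPM in the control. The low groups were thus JQ1-FCPF with sgRNA and JQ1 without sgRNA. That test called 8 of 34 genes, beside 19.4% of all genes: POLR2A, CDK12, SUPT5H, SUPT6H, MLLT1, CCNK, TCEA1 and CDK13. Such a count is near the share of all genes and says nothing particular about the members as a set. The count was 4 without control replicate 3, 5 without JQ1 without sgRNA replicate 2, 12 without JQ1 with sgRNA replicate 1 and 13 without JQ1-FCPF with sgRNA replicate 2. Calls over all genes went from 3006 to 1902 without control replicate 3 and to 4773 without JQ1-FCPF with sgRNA replicate 2.

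Across all 15 libraries, 3 genes had every JQ1 library below each of the 9 others, a pattern held by 0.638% of all genes. POLR2A spanned 128.3 to 152.0 CPM in the JQ1 libraries and 169.2 to 256.1 CPM in the others, SUPT6H 169.5 to 195.5 CPM and 197.5 to 247.4 CPM, and CDK12 52.3 to 58.6 CPM and 63.7 to 94.2 CPM. The opposite pattern, every JQ1 library above the others, was held by 0 members and by 0.541% of all genes.

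The sequences before the starts of POLR2A and CDK12 are given because these genes had the lowest edgeR adjusted p-values among the members and lie on the same chromosome. They are RefSeq sequence of GRCh38.p14, plus strand, and leave out bases inside any counted exon, which for POLR2A removes the stretch shared with the exon of ZBTB4. Capitals mark a GC box (GGGCGG, either strand), a motif bound by SP-family factors.
POLR2A: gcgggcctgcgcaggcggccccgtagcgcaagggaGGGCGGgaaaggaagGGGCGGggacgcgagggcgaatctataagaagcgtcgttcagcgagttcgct
CDK12: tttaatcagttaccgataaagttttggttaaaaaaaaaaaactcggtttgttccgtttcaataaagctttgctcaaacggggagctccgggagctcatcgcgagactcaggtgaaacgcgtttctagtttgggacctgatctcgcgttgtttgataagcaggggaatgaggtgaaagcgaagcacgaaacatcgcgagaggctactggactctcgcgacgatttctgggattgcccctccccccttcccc
The stretch of POLR2A is chr17:7484264-7484365 and holds GC boxes that begin 67 and 52 bases before the start. That of CDK12 is chr17:39461236-39461485 and holds none of the 6 motifs searched. In the full window of 250 bases, GGGCGG was found on either strand in 7 of the 8 genes lower under JQ1, in 23 of the 29 members matched in the RefSeq table, and in 42.6% of 35116 promoters. Those 35116 promoters were not limited to the genes tested here, so these sets are unlike and were not tested against each other. CCAAT was found in 2 of the 8, 5 of the 29 and 32.0%, and TATAAA in 0, 0 and 10.7%. The ETS core CCGGAAG was found in 1, 7 and 8.5%, CACGTG in 1, 3 and 6.3%, and TGACGTCA in 0, 0 and 1.6%.

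The median exon length of the 8 genes lower under JQ1 was 8.46 kb and their median span 47.2 kb, against 4.90 kb and 16.5 kb for the other 26 tested members, and 4.17 kb and 23.1 kb for all genes tested. Median GC content was 50.6% for the 8, 50.4% for the 26 and 49.5% for all genes. The median level in control cells was 120 CPM for the 8, 104 CPM for the 26 and 16.8 CPM for all genes. Among members with at least 8 kb of exon, 6 of 8 were called lower in JQ1 with sgRNA, where 5.47% of all genes of that length were against 7.04% of genes of any length. In JQ1 without sgRNA, 5 of the 8 were called lower, beside 6.73% of all genes of that length. Under 2 kb of exon, 0 of 5 members and 4.09% of all genes were called lower in JQ1 with sgRNA. Chromosome 17 holds 4 of the tested members (POLR2A, SUPT6H, CDK12 and SUPT4H1), all called lower in JQ1 with sgRNA, where 8.05% of the 994 tested genes of that chromosome were. The SUPT4H1 call held under 8 of 22 alternatives. In JQ1 without sgRNA, 3 of the 4 were called lower, beside 7.24% of the chromosome's tested genes. No other chromosome was examined. Length and chromosome were set beside calls already made, so these counts are a description and were not tested. With a correction for GC content and exon length, 10 members were called in JQ1 with sgRNA and 9 in JQ1 without sgRNA against the control, POLR2A and CDK12 in both. MLLT1 was not called in JQ1 without sgRNA under that correction (log2 -0.25, edgeR adjusted p = 0.0581).

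Other genes of transcription were read from lists. Of 21 further elongation factor genes, 1 was lower in JQ1 with sgRNA (ELOA, a subunit of elongin) and 2 in JQ1 without sgRNA (ELOA and ICE1), against the control. Of 31 general transcription factor genes, 2 were higher and 1 lower with sgRNA, and 3 higher and 2 lower without; MNAT1, which assembles the TFIIH kinase, was higher in both (1.30-fold and 1.34-fold) and TAF4, a TFIID subunit, lower in both (1.44-fold and 1.33-fold). Among 19 subunits of Pol I and Pol III, 6 were lower and 1 higher in each JQ1 group. POLR3GL, the alternative form of a Pol III subunit, was 1.34-fold higher with sgRNA and 1.38-fold higher without. In 32 genes of Integrator, cleavage and termination, 9 were lower and 1 higher with sgRNA, and 4 were lower without, CPSF7 by 1.33-fold and 1.45-fold. Of 19 genes of CTD phosphatases and Pol II assembly, 2 were lower in each JQ1 group, among them CTDSP1 (1.38-fold and 1.39-fold). All of these calls are by the same edgeR model. Of the 122 tested genes of these lists, 19 (15.6%) were lower in JQ1 with sgRNA than in the control, beside 7.04% of all genes. For JQ1 without sgRNA, 16 of the 122 (13.1%) were lower than in the control, beside 6.23% of all genes. The higher calls are the counts given for each list. Over all 15517 genes, 1119 were higher with sgRNA and 942 without. Whether the lists differed from all genes was not tested. List medians on the log2 scale were between -0.18 and -0.06 in JQ1 with sgRNA, beside 0.01 for all genes. In JQ1 without sgRNA they were between -0.20 (Pol I and Pol III) and 0.03 (further elongation factors), beside -0.00 for all genes.

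In JQ1-FCPF with against without sgRNA, 3 of the 122 tested genes of these lists were lower and 0 higher. That is 2.46%, below the 4.2% of all genes called lower, so the count says nothing particular about the lists. CCNT2, a cyclin of P-TEFb, had 20.8, 19.6 and 19.7 CPM with sgRNA against 34.2, 38.9 and 30.7 CPM without (1.73-fold lower, edgeR adjusted p = 0.00223). INTS6, an Integrator subunit, had 18.2, 18.1 and 16.4 CPM with sgRNA against 31.3, 27.7 and 27.8 CPM without (1.65-fold lower, edgeR adjusted p = 0.000296). CSTF1, of the cleavage stimulation factor, had 26.7, 32.0 and 30.2 CPM with sgRNA against 50.7, 43.8 and 46.1 CPM without (1.58-fold lower, edgeR adjusted p = 0.000327). For each the groups were well apart, and replicate 2 of JQ1-FCPF with sgRNA lay with its group. These 3 were also called in the interaction by edgeR.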

How the data were processed

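RNA was isolated with Trizol and sequenced by Azenta, per the labels' protocols. For each library the authors deposited raw counts of reads per gene, unnormalised per the file headers. No aligner, build, kit or strand setting is given in the sources used here. Coordinates matched GENCODE 29 (GRCh38) for 96.2% of the 56898 identifiers found there, and for 32 of the 36 genes (not NELFB, CTR9, CDC73 and CDK13). The gene list, the other lists and the tests were chosen with earlier results of these data known.

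Tests used edgeR 4.0.16 (R 4.3.3). The filterByExpr filter kept 15517 genes. After TMM scaling, all 15 libraries entered a single quasi-likelihood fit with a mean for each group (biological coefficient of variation 11.1%). Calls are at a Benjamini-Hochberg adjusted p under 0.05 over all genes, for 8 pairs of groups, the interaction and any difference among the 5 groups. Genes named with full values are the members called in any pair, with POLR2L and NELFCD, chosen after their values were seen. CPM was computed on TMM-scaled totals. Libraries held 12625669 to 17544518 counts, and the least counted tested member, ELL2, had 4968 counts over all 15. Replicates differed by more than counting noise (chi-square per degree of freedom 2.96 to 48.9). No pairing of libraries by title letter was seen. The median correlation of deviations was -0.00861 for the same letter (-0.238 to 0.311) and 0.0177 for different letters (-0.339 to 0.237). Ranges this wide cannot exclude pairing. The scripts were tested on simulated data. DESeq2 1.42.0 and the other alternatives are in the closing section.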

Additional observations from a re-analysis of the deposited data

How the results depend on the processing

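Each count of the 34 tested genes called was recomputed under 22 alternatives (21 for any difference), of which 15 leave out 1 library each and 1, a correction for GC content and exon length, was chosen after seeing the data; no called gene changed sign. Single libraries moved the counts to 0 to 1 in JQ1-FCPF with against without sgRNA, 0 to 1 in the interaction, 0 to 1 in JQ1-FCPF with sgRNA against the control, 1 to 9 in JQ1 with sgRNA against the control, 0 to 11 in JQ1 without sgRNA against the control, 1 to 10 in JQ1-FCPF against JQ1 with sgRNA, 0 to 7 in the same without sgRNA, and 4 to 13 for any difference. A fit of only the groups compared gave 0, 5, 13, 0 and 9 in JQ1-FCPF with against without sgRNA, JQ1 with sgRNA against the control, JQ1 without sgRNA against the control, JQ1-FCPF against JQ1 with sgRNA and the same without. Calls over all genes were then 351, 2056, 4521, 11 and 2959, beside 970, 2211, 1908, 458 and 1210 in the main fit. Leaving out JQ1 with sgRNA replicate 1 together with replicate 2 of JQ1-FCPF with sgRNA gave 3, 2, 2, 13, 12, 10 and 18 in JQ1-FCPF with against without sgRNA, the interaction, JQ1-FCPF with sgRNA against the control, JQ1 without sgRNA against the control, JQ1-FCPF against JQ1 with sgRNA, the same without, and any difference. In JQ1 with sgRNA against the control it gave 10, of which 1, NELFB, was higher. The same omission raised calls over all genes from 3006 to 6128 for any difference. In JQ1-FCPF against JQ1 with sgRNA it raised them from 458 to 3176. DESeq2 gave 2, 3, 1 and 7 in JQ1-FCPF with against without sgRNA, the interaction, JQ1-FCPF with sgRNA against the control, and JQ1-FCPF against JQ1 without sgRNA. It gave 9 in JQ1 without sgRNA against the control, with CCNK, NELFCD and SUPT16H gained. The correction for GC content and exon length gave 1 in JQ1-FCPF with sgRNA against the control. A replicate block by title letter gave 1 in JQ1-FCPF against JQ1 with sgRNA and moved no other count by over 1.5 times. DESeq2 size factors left the same members called in each comparison. No filter on low counts gave 9 in JQ1 with sgRNA against the control (POLR2L gained), 5 without (MLLT1 lost) and 3 in JQ1-FCPF against JQ1 without sgRNA (CTR9 and SUPT5H lost, POLR2A gained). JQ1 with against without sgRNA and JQ1-FCPF without sgRNA against the control stayed at 0 throughout. The cause of these shifts was not tested beyond the loss or gain of libraries. POLR2A was called in JQ1 with sgRNA against the control under 22 of 22 alternatives. Depth was not varied.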
